A study of Mus musculus with 10 samples.

Results

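Glomeruli of diabetic mice that carried an Esm-1 plasmid were compared with glomeruli of non-diabetic mice that had received saline. The comparison used 6 of the 10 libraries of the series, 3 in each group, and 7632 of 12934 genes in the table, those with a normalized count of at least 10 in at least 3 of the 6 libraries. RNA was sequenced from glomeruli, the filtering tufts of the kidney, of wildtype DBA/2J mice aged 17 weeks, a strain labelled susceptible to diabetic kidney disease. All mice had a hydrodynamic injection (a fast, large-volume injection into the circulation that mainly loads the liver) at 7 weeks of age. The diabetic Esm-1 group received a plasmid for mouse Esm-1 with the Sleeping Beauty transposase, which inserts the plasmid's gene into the host genome, then streptozotocin, a toxin of insulin-producing beta cells, from 8 weeks of age, and later a 60% high-fat diet for 5 weeks. The non-diabetic saline group received saline in place of the plasmid, the vehicle in place of streptozotocin, and no high-fat diet according to the labels. Diabetes, diet and plasmid therefore changed together between the groups and cannot be told apart in this comparison. The third group, diabetic saline (4 libraries), had streptozotocin and the diet but no plasmid. Its values are given for some genes and lists only, mostly at the end of these results. The diabetic groups were also tested against each other. The labels do not say whether a library is 1 animal, so p-values measure the spread between these libraries only. No group had a plasmid without Esm-1.

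The glomerulus filters blood through a fenestrated endothelium, a basement membrane and the interlocking foot processes of podocytes, held together by mesangial cells. In diabetic kidney disease podocytes are injured and lost, endothelial nitric oxide signalling fails and leukocytes are attracted. Esm-1, or endocan, is a proteoglycan that endothelial cells secrete and that binds a leukocyte integrin.

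The 6 libraries held 5989881 to 11300629 reads, of which 91.1% to 92.8% fell on Rn45s (the ribosomal RNA precursor), Lars2 and Mir6236, leaving 475275 to 962321 reads for all other genes. A floor of 3 reads corresponded to 1.86 to 3.74 normalized counts, and covers counting error only. On the first principal component (33.9% of the variance over all 10 libraries) non-diabetic scores ran from -40.7 to -24.3 and scores under diabetic Esm-1 from 11.5 to 29.3, with diabetic Esm-1 replicate 1 inside the range of the diabetic saline libraries (0.83 to 11.7) and replicates 2 and 3 beyond it. Nphs1, which encodes nephrin of the podocyte slit diaphragm, was present in each of the 6 libraries, at 138.9 to 535.1 normalized counts. Tubular genes were present too, as given below, so this marker does not show how pure the preparations were. Leukocyte markers were scarce. The 13 myeloid genes with a row in the table, of 25 listed, summed to 164.1 to 191.3 normalized counts in non-diabetic saline and 144.9 to 189.5 in diabetic Esm-1, and the 2 lymphocyte genes, of 20 listed, to 10.9 to 24.1 and 2.39 to 13.3.

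Esm1 mRNA itself was near the limit of detection in glomeruli. It had 4, 2 and 0 reads in the non-diabetic libraries, 4, 1, 2 and 1 in the diabetic saline libraries, and 10, 4 and 0 in the diabetic Esm-1 libraries, and it did not pass the filter on low values. The groups overlapped. Scaled to depth, its reads in diabetic Esm-1 were 2.40 times those in the non-diabetic group (exact 95% counting interval 0.867 to 7.63). Diabetic Esm-1 replicate 1 held 10 of the 14 reads of its group; the ratio was 1.25 without it (0.259 to 5.25) and 3.90 without non-diabetic saline replicate 1 (0.896 to 35.3). The injection mainly loads the liver and the protein is secreted, so glomerular mRNA is no check of the plasmid's expression.

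Between diabetic Esm-1 and non-diabetic saline, 576 genes rose (7.55% of those tested) and 673 fell (8.82%) at an adjusted p under 0.05 (limma, Benjamini-Hochberg over the 7632 genes). Values of the groups did not overlap for 544 of the risers (7.13% of tested genes) and 659 of the fallers (8.63%). Of the called genes, 320 rose (4.19% of tested genes) and 280 fell (3.67%) at least 2-fold on the scale of log2 of the normalized count plus 1, on which every fold here is given and which understates the change of low genes. The median difference over all tested genes was -0.0044 on the log2 scale. The counts rested in part on single libraries: 304 rose and 390 fell without diabetic Esm-1 replicate 2, 276 and 350 without its replicate 3, and 403 and 416 without non-diabetic saline replicate 2. Genes named below passed the test in the fit with all libraries and again without each of the 10 libraries in turn, without overlap of the groups, unless stated otherwise; 237 risers (3.11%) and 282 fallers (3.69%) did so. A gene could pass the filter through 1 group alone, as 112 tested genes did through diabetic Esm-1 and 75 through non-diabetic saline, so counts within a gene list are given as descriptions beside these shares.

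**Figure D1:**
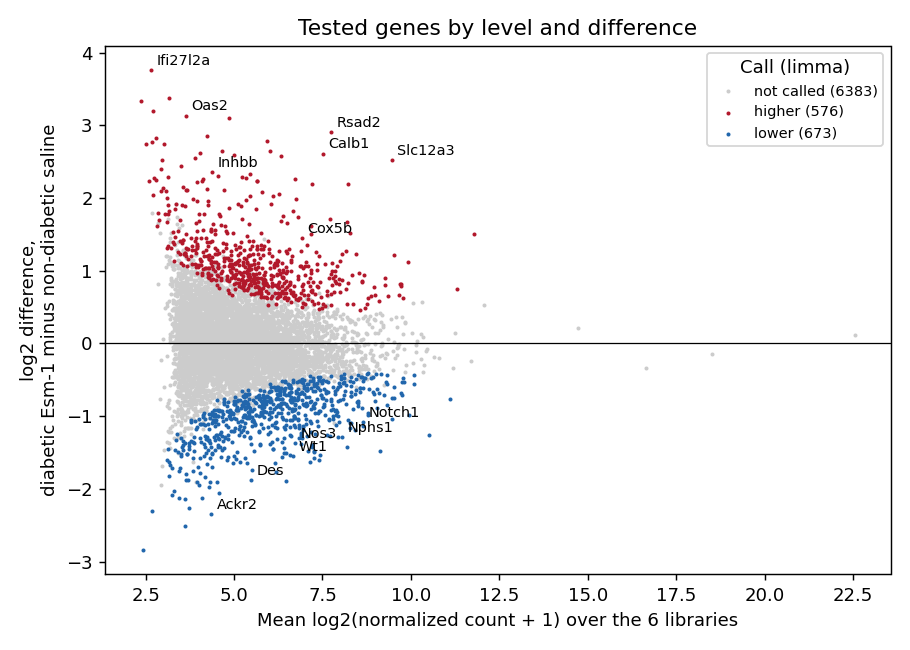
Log2 difference between diabetic Esm-1 and non-diabetic saline (vertical axis) against the mean log2 level over the 6 libraries (horizontal axis), 1 point per tested gene. Red points are the 576 genes that rose and blue points the 673 that fell; Rsad2 lies at 2.90 and Ackr2 at -2.35.

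Interferon-stimulated genes, which cells switch on when interferons bind their receptors and which encode antiviral enzymes, sensors and signalling proteins, had the highest median among the lists with at least 2 tested genes. Of 65 listed genes 54 were tested, of which 43 rose and Trim25 fell; 7 of the 54 had passed the filter through 1 group alone. The list's median difference was 1.23 on the log2 scale. The fall of Trim25 was lost without diabetic Esm-1 replicate 2 or 3 or any 1 of the non-diabetic libraries, whereas 32 to 43 members rose whichever library was left out. Rsad2, which encodes the antiviral enzyme viperin, had 59.4, 76.2 and 101 normalized counts in the non-diabetic libraries and 651.8, 555.9 and 545.9 in the diabetic Esm-1 libraries. The groups were far apart: Rsad2 rose 7.48-fold (log2 2.90, SE 0.20, limma adjusted p = 2.81e-08). Ifit2, whose product blocks translation of viral RNA, had 17.3, 22.7 and 27.4 normalized counts in non-diabetic saline and 194.7, 154.5 and 132.9 in diabetic Esm-1, a rise of 6.91-fold (log2 2.79, SE 0.22). Oas2, an oligoadenylate synthetase that senses double-stranded RNA, had 1.24, 4.53 and 4.99 against 36.5, 36.2 and 34.7. Oas2 and the next gene passed the filter on low values only through diabetic Esm-1, so their values are a description. Ifi27l2a, an interferon-induced mitochondrial protein gene, had 0 to 2 reads in each non-diabetic library and 22 to 28 in each diabetic Esm-1 library, a depth-scaled ratio of 25.4 (exact 95% counting interval 8.36 to 126), or 41.2 without non-diabetic saline replicate 1. Outside the list, the guanylate-binding protein gene Gbp8 rose 8.58-fold, the interferon-inducible DNA-sensor family members Ifi202b and Ifi204 4.91-fold and 3.70-fold, and Cd274, which encodes the T cell inhibitory ligand PD-L1, 3.38-fold. The difference of Ifi202b was 2.94 on the log2 scale without non-diabetic saline replicate 3, against 2.29 with it. Several of these families hold near-identical copies, so reads may be shared between members.

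The promoters of these genes carried the core of the interferon-stimulated response element, which the interferon-activated complex of STAT and IRF9 proteins binds, in a larger share than the tested genes as a whole. The letters GAAA, any 2 bases and GAAA again were searched on both strands in the 250 bases before the gene start, in RefSeq's GRCm38.p6 promoters of the C57BL/6J reference, while the mice here were DBA/2J. Of the 54 tested interferon-stimulated genes 39 had an entry, and 17 of these (43.6%) held a match, against 174 of 5833 tested genes with an entry (2.98%) and 936 of all 27025 genes with one (3.46%). Among genes with an entry, a match was found in 7.82% of those that rose (33 of 422) and 2.21% of those that fell (11 of 498). It was found in 2.65% of those not called (130 of 4913). The genes that rose include 43 of the interferon list. A match was also in 15.8% of cytosolic ribosomal protein promoters (6 of 38) and 8.33% of constitutive proteasome promoters (2 of 24), lists without a call. The promoters of 4 interferon-stimulated genes that rose and hold a match are shown 5′ to 3′ along the gene's strand, with the match in capitals; a match on the other strand reads TTTC, any 2 bases, TTTC. Those of Ifit1 and Ifit3, 2 neighbours whose products bind viral RNA, hold 2 matches each, and those of Rsad2 and Cxcl10, which encodes a chemokine for activated T cells, hold 1 each.
Rsad2: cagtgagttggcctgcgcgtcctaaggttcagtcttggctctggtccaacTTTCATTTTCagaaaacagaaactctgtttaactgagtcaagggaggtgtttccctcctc
Ifit1: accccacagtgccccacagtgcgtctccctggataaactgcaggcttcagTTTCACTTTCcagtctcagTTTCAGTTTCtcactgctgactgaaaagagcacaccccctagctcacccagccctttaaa
Ifit3: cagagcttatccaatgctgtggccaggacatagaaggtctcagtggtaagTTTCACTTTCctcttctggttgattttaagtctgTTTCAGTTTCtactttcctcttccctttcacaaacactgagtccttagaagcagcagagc
Cxcl10: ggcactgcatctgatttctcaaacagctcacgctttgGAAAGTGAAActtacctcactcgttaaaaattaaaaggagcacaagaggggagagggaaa
In GRCm38 these stretches are chr12:26456513-26456622 on the minus strand for Rsad2, chr19:34640735-34640863 on the plus strand for Ifit1, chr19:34583323-34583466 on the plus strand for Ifit3 and chr5:92349043-92349139 on the minus strand for Cxcl10. The first match begins 120 bases before the gene start in Rsad2, 104 in Ifit1, 156 in Ifit3 and 213 in Cxcl10. The log2 difference of these genes was 2.90 for Rsad2, 2.03 for Ifit1, 2.26 for Ifit3 and 2.64 for Cxcl10; the last 3 were chosen after their values and matches were seen. A match describes the letters only and shows no binding.

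Antigen presentation, by which cells display peptides on MHC class I to T cells, included 8 risers among 18 tested genes and no faller. H2-K1, a class I heavy chain, had 227.8, 282 and 278 normalized counts in non-diabetic saline and 572.4, 521.6 and 448.9 in diabetic Esm-1 (1.95-fold, SE 0.18 on the log2 scale). H2-T23, a non-classical class I gene, rose 2.12-fold, H2-Q4 1.75-fold and Nlrc5, the transcriptional activator of class I genes, 1.93-fold. The number of risers was 4 without diabetic Esm-1 replicate 1 or 2 or non-diabetic saline replicate 1, and 5 without diabetic Esm-1 replicate 3. Of 30 tested subunits of the constitutive proteasome, which is not interferon-driven, none passed limma in either direction (2 were higher and 0 lower at an unadjusted p under 0.05), and edgeR and DESeq2 called 0 as well. Psmb4 had the largest difference among those with a mean of at least 50 (log2 0.51, limma adjusted p = 0.134), followed by Psmd7 (log2 0.30). The list's median was 0.08, against 0.55 for antigen presentation.

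Several chemokines were among the risers, and 2 atypical chemokine receptors, which bind and remove chemokines without signalling through G proteins, were among the fallers. Of 17 tested genes of this list, 5 rose (Ccl2, Cxcl2, Cxcl11, Cxcl16 and Il6) and 3 fell (Ackr2, Ackr3 and the adhesion gene Icam2, which was lost when any 1 of the diabetic Esm-1 libraries, or non-diabetic saline replicate 1 or 2, was left out). The difference was negative for 7 of the 17, and Ccl2 and Cxcl11 had passed the filter only through diabetic Esm-1, so their values are a description. Ccl2, the main attractant of monocytes, had 3.10, 1.81 and 8.73 normalized counts in non-diabetic saline and 29.3, 19.1 and 28.7 in diabetic Esm-1. Cxcl2, a neutrophil attractant, had 113.9, 79.8 and 148.3 against 254.6, 245.1 and 270.5 (2.31-fold higher, SE 0.21 on the log2 scale), without overlap. Cxcl11, another interferon-induced T cell attractant, had 1 to 3 reads in each non-diabetic library and 9 to 24 in each diabetic Esm-1 library, a ratio of 7.55 (exact 95% counting interval 3.20 to 21.7), or 4.90 without non-diabetic saline replicate 1 and 11.7 without its replicate 3. Ackr2, a scavenger of inflammatory CC chemokines such as Ccl2, had 34.1, 59.9 and 44.9 normalized counts in non-diabetic saline and 9.77, 3.81 and 13.2 in diabetic Esm-1. Each diabetic Esm-1 library was below each non-diabetic one, a fall of 5.11-fold (log2 -2.35, SE 0.37, limma adjusted p = 0.000268). Ackr3, a scavenger of Cxcl12, had 26.6, 40.8 and 23.7 against 13.0, 7.63 and 4.79 (log2 -1.78, SE 0.38). The complement component C3 rose 2.35-fold, 1 of 3 risers among 9 tested complement genes. The others, Cfb and Clu, were lost when any 1 of the diabetic Esm-1 libraries was left out.

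**Figure D2:**
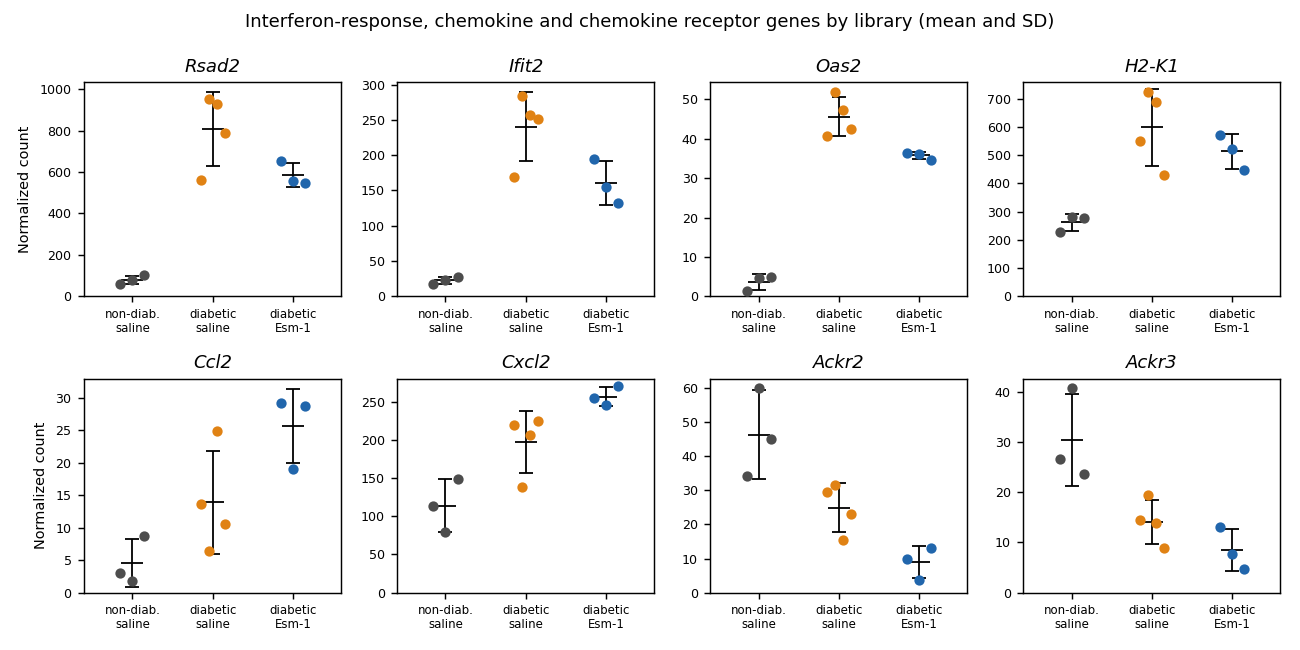
Normalized counts per library (vertical axes, from 0) of interferon-response, chemokine and chemokine receptor genes in the 3 groups; points are libraries, bars the mean and SD. Rsad2, Ifit2, Oas2 and H2-K1 are higher in diabetic Esm-1 than in every non-diabetic library, Ackr2 and Ackr3 lower.

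Nuclear genes of mitochondrial respiration, which make ATP by passing electrons along the complexes of the inner membrane, were higher throughout. Of 35 tested subunits of complex I, the entry point for NADH, 24 rose, and of 40 subunits of complexes II to V 31 rose; none fell in either list, and all 75 had a positive difference. The medians were 0.91 and 0.92 on the log2 scale. Cox5b, a subunit of cytochrome c oxidase, had 82.3, 81.6 and 56.1 normalized counts in non-diabetic saline and 164.7, 213.6 and 225.1 in diabetic Esm-1 (2.73-fold, log2 1.45, SE 0.18, limma adjusted p = 2.66e-05). Ndufa13, a complex I subunit, had 29.7, 40.8 and 24.9 against 66.4, 88.7 and 81.4 (2.46-fold). In both genes diabetic Esm-1 replicate 1 was the lowest of its group. The ATP synthase genes Atp5c1 and Atp5g1 rose 2.67-fold and 2.53-fold, Cox5a, another cytochrome c oxidase subunit, 2.59-fold, and the complex I genes Ndufs8, Ndufb6 and Ndufc2 2.57-fold, 2.30-fold and 2.18-fold. The number of complex I genes that rose was 12 without diabetic Esm-1 replicate 2 and 10 without replicate 3; for complexes II to V it was 23 to 33 whichever library was left out. Letters of the NRF1 motif (GCGCA, any base, GCGC, which is nearly its own reverse complement, on both strands), NRF1 being a regulator of respiratory genes, were in 5 of 32 complex I promoters (15.6%) and 7 of 31 of complexes II to V (22.6%), against 9.77% of all tested genes with an entry. Among genes with an entry, they were in 6.87% of those that rose, 5.82% of those that fell and 10.4% of those not called. They were also in 25% of constitutive proteasome and 22.7% of mitochondrial ribosomal protein promoters. Mitochondrial ribosomal proteins, which translate the mitochondrial genome's own subunits, had 26 of 68 listed genes tested. The 1 riser, Mrpl12, was not called without diabetic Esm-1 replicate 2 or 3 or non-diabetic saline replicate 2 or 3. The difference was positive in 24 of the 26, with a median of 0.33. Their mean log2 value was 3.47 to 3.64 in the non-diabetic libraries and 3.77 to 4.14 in the diabetic Esm-1 libraries.

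Enzymes that feed electrons to these complexes rose as well. In the citric acid cycle, 10 of 19 tested genes rose, among them the isocitrate dehydrogenase genes Idh3a (2.21-fold) and Idh2 (2.18-fold) and the malate dehydrogenase gene Mdh1 (1.96-fold). In fatty acid oxidation 15 of 34 rose and none fell. Etfb, which carries electrons from fatty acid dehydrogenases, had 39.0, 39.0 and 23.7 normalized counts in non-diabetic saline and 76.8, 108.7 and 75.4 in diabetic Esm-1 (2.55-fold, SE 0.24 on the log2 scale). Eci1, an isomerase for unsaturated fatty acids, rose 3.22-fold, the fatty acid binding protein gene Fabp3 2.67-fold and the acyl-CoA dehydrogenase gene Acadl 2.16-fold. Without diabetic Esm-1 replicate 3 the risers were 4 in the citric acid cycle and 9 in fatty acid oxidation, and without replicate 2 there were 8 in the latter. List medians were 0.62 and 0.79.

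Cholesterol synthesis and uptake had 6 risers among 12 tested genes and no faller, with all 12 differences positive and a median of 1.06. Among the risers were Msmo1 and Cyp51, enzymes that convert lanosterol towards cholesterol (2.83-fold and 2.37-fold), Insig1, which restrains the pathway when sterols are plentiful (2.48-fold), and Sqle, the squalene epoxidase (2.30-fold). Each of these 4 calls was lost without diabetic Esm-1 replicate 2 or 3 or both, and 2 members of the list rose when either of those libraries was left out. In glycolysis and glucose transport 5 of 21 rose. Ldhb, a lactate dehydrogenase subunit, had 198.1, 155.1 and 199.4 against 365.3, 479.6 and 501.6 (2.42-fold, limma adjusted p = 2.65e-05). The pyruvate kinase gene Pkm rose 1.81-fold, and the other 3 were Aldoa, Pgk1 and the glucose transporter gene Slc2a1. The calls of these other 3 did not hold without each library in turn. The glycolysis risers numbered 3 without diabetic Esm-1 replicate 2, and 2 without its replicate 3 or non-diabetic saline replicate 2. Cytosolic ribosomal proteins, 50 tested, had no call by limma, edgeR or DESeq2 (limma had 2 higher and 1 lower at an unadjusted p under 0.05). Their median was 0.05, and Rpl10 and Rps2, which had the largest differences among abundant members, lay at -0.45 and 0.40 on the log2 scale. With a term for title numbers under 100, Rpl10 was called lower (log2 -0.61, limma adjusted p = 0.0408), and 1 member was called higher without diabetic Esm-1 replicate 1.

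**Figure D3:**
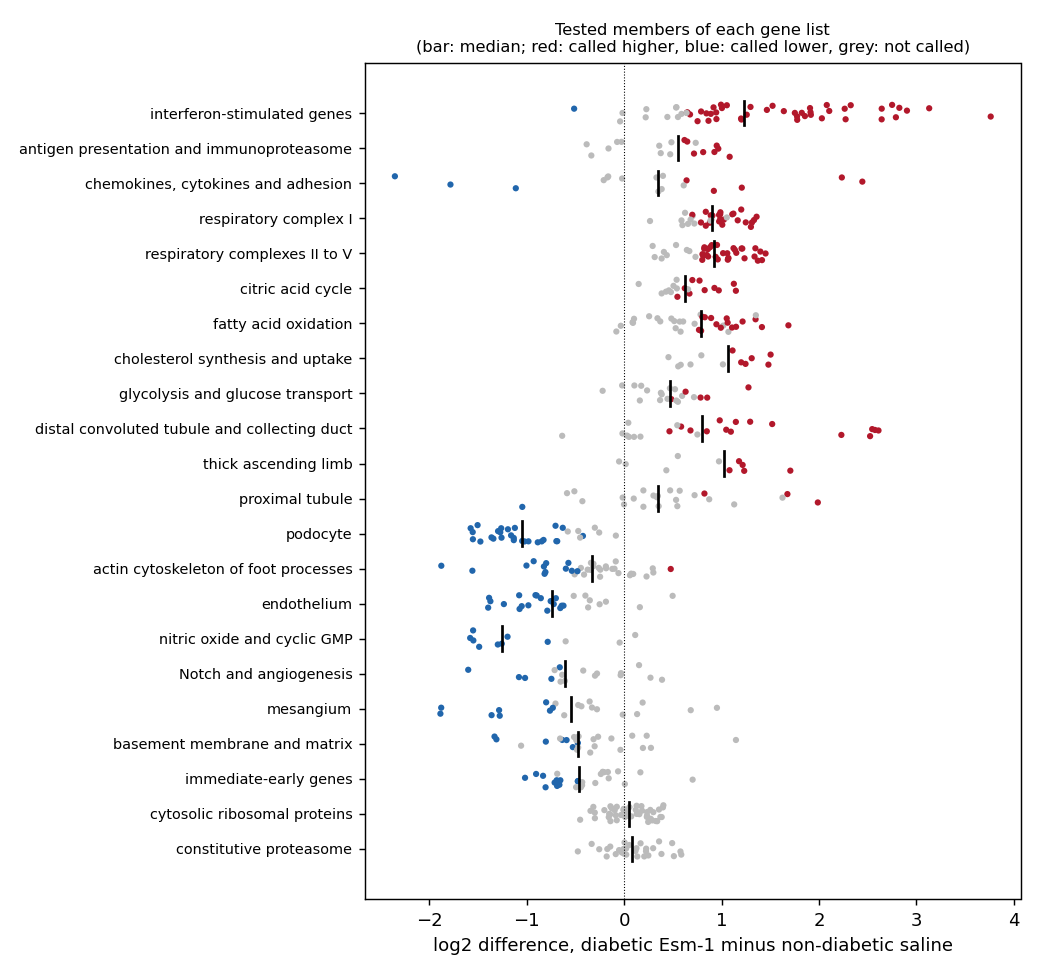
Log2 difference, diabetic Esm-1 minus non-diabetic saline (horizontal axis), of each tested member of 22 gene lists (rows); bars are list medians, and colours show calls. Medians run from 1.23 for interferon-stimulated genes to -1.26 for nitric oxide and cyclic GMP, with ribosomal and proteasome genes near 0.

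Podocyte genes fell more widely than those of any other list of more than 20 tested genes, 27 of 33 with no riser and a median of -1.05 on the log2 scale, and 20 to 27 fell whichever library was left out. In bulk RNA, fewer cells of a type and less RNA per cell cannot be told apart. Nphs1 had 396.2, 535.1 and 336.6 normalized counts in non-diabetic saline and 223.3, 154.5 and 138.9 in diabetic Esm-1 (2.45-fold lower, SE 0.21 on the log2 scale, limma adjusted p = 0.000354). The groups did not overlap, and diabetic Esm-1 replicate 1 was the highest of its group; this gene was named after its values were seen. Wt1, the transcription factor that maintains podocytes, had 159.1, 238.5 and 139.6 normalized counts against 73.6, 59.1 and 46.7 (2.93-fold lower). Thsd7a, a membrane protein of foot processes, fell 2.98-fold, the transcription factor gene Foxc2 2.94-fold and Magi2, a scaffold of the slit diaphragm, 2.84-fold. Of 36 tested genes of the foot process cytoskeleton and adhesion, 12 fell and Cttn rose. Slc9a3r2, which links podocalyxin to ezrin, fell 2.94-fold, Syne1, a link of nucleus and cytoskeleton, 2.00-fold and Parva, part of the integrin adhesion complex, 1.90-fold. Pdlim2, another faller, passed the filter only through non-diabetic saline and had 5.86, 8.58 and 3.59 normalized counts in diabetic Esm-1. The fallers of this list numbered 6 and 7 without diabetic Esm-1 replicates 2 and 3, and the rise of Cttn was lost when any 1 of the 6 libraries was left out.

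Endothelial genes fell in 18 of 26 tested members, with no riser and a median of -0.74. Nos3, the endothelial nitric oxide synthase, had 160.3, 176.8 and 170.8 normalized counts in non-diabetic saline and 72.9, 70.6 and 52.7 in diabetic Esm-1. The values of each group lay close together and far from the other group (2.59-fold lower, log2 -1.37, SE 0.18, limma adjusted p = 4.73e-05). Egfl7, a secreted factor of vessel formation, fell 2.61-fold, Smad6, an inhibitor of BMP signals, 2.63-fold and Mmrn2, an endothelial matrix protein gene, 2.35-fold. Downstream of nitric oxide, soluble guanylate cyclase makes cyclic GMP, which activates a protein kinase; 8 of 11 tested genes of this pathway and its relatives fell, with a median of -1.26. Gucy1a3, a subunit of the cyclase, had 32.2, 39.9 and 28.7 normalized counts against 9.12, 10.5 and 11.97 (2.99-fold lower). Prkg1, the cyclic GMP-dependent kinase, fell 2.80-fold, Npr1, the natriuretic peptide receptor that also makes cyclic GMP, 2.46-fold, and Ddah2, which degrades an inhibitor of nitric oxide synthase, 2.39-fold. The fallers of this pathway numbered 5 without diabetic Esm-1 replicate 3 or non-diabetic saline replicate 2. Of 17 Notch and angiogenesis genes 5 fell (Dll4, Notch1, Notch4, Angptl2 and Efnb2) and none rose, and the groups did not overlap for 4 of the 5. The fallers numbered 2 without diabetic Esm-1 replicate 2 or 3 or non-diabetic saline replicate 2. Only the falls of Dll4 and Notch1 held without each library in turn and without overlap. Notch1, a receptor in vessel sprouting, had 612.3, 558.6 and 585.8 normalized counts against 273.5, 304.2 and 253.8 (2.11-fold lower, limma adjusted p = 2.53e-05), and its ligand Dll4 fell 3.03-fold.

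**Figure D4:**
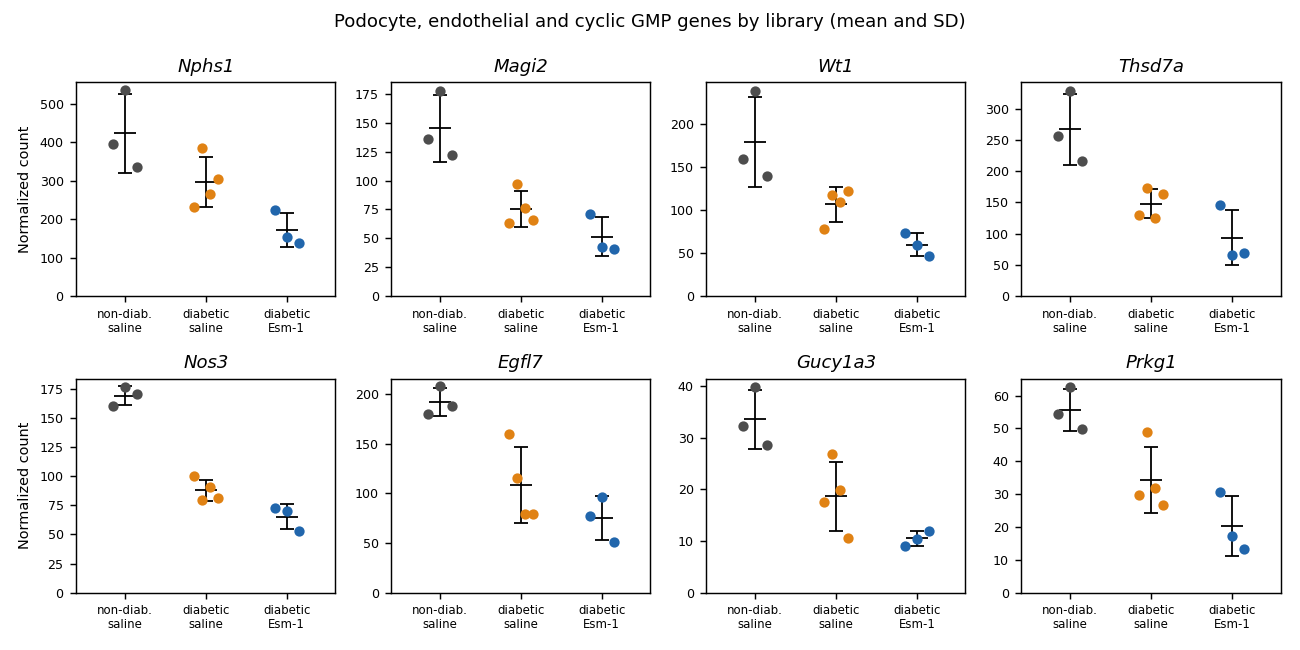
Normalized counts per library (vertical axes, from 0) of podocyte genes (Nphs1, Magi2, Wt1, Thsd7a), endothelial genes (Nos3, Egfl7) and cyclic GMP genes (Gucy1a3, Prkg1) in the 3 groups; points are libraries, bars the mean and SD. In each gene all 3 diabetic Esm-1 libraries lie below all 3 non-diabetic libraries, as for Nos3 at 52.7 to 72.9 against 160.3 to 176.8.

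Mesangial genes fell in 8 of 20 tested members, with no riser and a median of -0.54. The difference was positive in 4 of the 20, and 1 member had passed the filter through 1 group alone. With a term for title numbers under 100, without the 2 such libraries, or without non-diabetic saline replicate 3, 1 member was called higher. Des, the intermediate filament desmin, had 67.5, 99.8 and 89.7 normalized counts in non-diabetic saline and 18.9, 30.5 and 19.2 in diabetic Esm-1 (3.67-fold lower, SE 0.27 on the log2 scale). Sfrp2, a secreted modulator of Wnt signals, fell 3.69-fold, the adhesion gene Mcam 2.57-fold and the growth factor gene Ptn 2.43-fold. Genes of TGF-beta family signals mostly fell where they were called, with Inhbb as an exception. Inhbb, the beta B subunit of activins and inhibins, had 6.81, 10.9 and 7.48 normalized counts in non-diabetic saline, 71.2, 137, 88.7 and 44.3 in diabetic saline and 37.1, 73.4 and 35.9 in diabetic Esm-1, a rise of 5.11-fold (log2 2.35, SE 0.34, limma adjusted p = 0.000162). Ctgf, a matrix-associated growth factor induced by TGF-beta, had 266.2, 330.1 and 281.7 against 88.6, 122.1 and 92.2 in diabetic Esm-1, 2.90-fold lower, and the latent TGF-beta binding protein genes Ltbp1 and Ltbp4 fell 2.56-fold and 2.24-fold. In all, 6 of 21 fell and 2 rose, beside 8.82% and 7.55% of all tested genes. The second riser, Id2, was not called without diabetic Esm-1 replicate 2 or 3 or non-diabetic saline replicate 2 or 3. Among 25 genes of basement membrane and matrix 7 fell, a count of 1 without diabetic Esm-1 replicate 2 or 3, of 3 without non-diabetic saline replicate 2 and of 4 without its replicate 3. Col4a1, a type IV collagen chain, had 632.7, 835.2 and 787.8 normalized counts against 508.5, 526.4 and 519.5 (1.44-fold lower). In the proteoglycan list, to which Esm1 belongs, 3 of 25 fell and 2 rose, beside 8.82% and 7.55% of all tested genes. Sulf1, which removes sulfate from heparan sulfate, fell 2.01-fold; Hspg2 and Gpc3 were the other fallers, both not called without diabetic Esm-1 replicate 1, and the rises of Sdc1 and Hs3st1 were both lost without diabetic Esm-1 replicate 2 or 3 or non-diabetic saline replicate 2.

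The markers of the 3 intrinsic glomerular cell types moved with these groups. Their mean log2 value over 79 tested genes was 7.07 ± 0.11 over the 3 non-diabetic libraries, 6.77 ± 0.18 over the 4 of the diabetic group without plasmid and 6.28 ± 0.15 over the 3 with it (mean and SD). The difference of -0.78 between the first and last had a two-sided exact permutation p of 0.1, and a design of 3 and 3 libraries can give none smaller. Among tubular markers, which tubule fragments in a glomerular preparation can bring, only the distal sum separated the groups. Genes of the distal convoluted tubule and collecting duct summed to 3078, 1779 and 3285 normalized counts in non-diabetic saline and 4356, 6284 and 7377 in diabetic Esm-1, without overlap (exact permutation p = 0.1). Proximal tubule genes summed to 1658 to 5544 and 3913 to 4999, and thick ascending limb genes to 1306 to 3470 and 2164 to 3992, with overlap in both. Whether the makeup of the preparations differed, and what part that had in the results for other genes, respiration included, was not tested.

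Of 24 tested genes of the distal convoluted tubule and collecting duct, 15 rose and none fell, and 9 and 8 rose without diabetic Esm-1 replicates 2 and 3. Calb1, a calcium-binding protein of the distal convoluted tubule, had 89.8, 35.4 and 122.2 normalized counts in non-diabetic saline and 261.1, 484.4 and 726.6 in diabetic Esm-1 (6.11-fold, SE 0.35 on the log2 scale). Slc12a3, the thiazide-sensitive sodium chloride cotransporter, had 543, 88.0 and 529.8 against 875.1, 2195 and 2540 (5.75-fold, log2 2.52, SE 0.47). Non-diabetic saline replicate 2 was far below the other non-diabetic libraries, and without it the log2 difference was 1.66 for Slc12a3 and, for Klk1, which encodes tissue kallikrein, 1.84 in place of 2.57. Pvalb, another calcium-binding protein gene of this segment, rose 5.84-fold. In the thick ascending limb 5 of 10 rose, among them Sostdc1 (3.26-fold), a BMP inhibitor; the count was 2 without diabetic Esm-1 replicate 2 or 3 or non-diabetic saline replicate 2, and leaving out diabetic saline replicate 3 gave 3. Of 24 proximal tubule genes 3 rose (Pck1, Kl and Aqp1) and Cyp4b1 fell, and 6 rose without non-diabetic saline replicate 2. Only the calls of Pck1 and Kl held without each library in turn and without overlap of the groups. Pck1, the gluconeogenic enzyme, had 60.1, 97.0 and 26.2 normalized counts against 129.6, 366.2 and 210.7 (3.97-fold). Kl, which encodes the FGF23 co-receptor klotho and is also expressed in distal tubule, rose 3.19-fold. The fall of Cyp4b1, a cytochrome P450, was lost without diabetic Esm-1 replicate 2 or 3 or non-diabetic saline replicate 2.

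Immediate-early genes were lower where they were called, and stress lists went both ways. Of 26 immediate-early genes 11 fell and none rose, with 6 or 7 falling without diabetic Esm-1 replicate 2 or 3 or non-diabetic saline replicate 1. Gadd45b, a stress-induced growth arrest gene, had 282.3, 286.6 and 340.3 normalized counts in non-diabetic saline and 161.5, 172.6 and 149.6 in diabetic Esm-1 (1.87-fold lower), and Ier2, Fosl2 and the phosphatase gene Dusp1 fell 1.75-fold, 1.64-fold and 1.61-fold. In the unfolded protein and ATF4 list 3 of 33 fell (Nupr1, Trib3 and Xbp1) and none rose. Over all tested genes 8.82% fell and 7.55% rose, so the small counts of the ATF4, antioxidant and clock lists are descriptions only. Nupr1, a stress-induced chromatin protein that also stood in the podocyte list, fell 2.07-fold, and it was the 1 faller left without diabetic Esm-1 replicate 2 or 3 or non-diabetic saline replicate 1 or 3. Of 20 kidney injury genes 4 rose and 4 fell, and the groups did not overlap for 7 of these. Vim, vimentin, which podocytes and mesangium also express, had 906.4, 1270 and 901.2 against 554.8, 479.6 and 445.3 (2.06-fold lower), and Spp1, osteopontin, 643.2, 238.5 and 708 against 827.6, 1261 and 1314 (2.33-fold higher). The other calls of this list (Lgals3, Clu and Sox4 higher, Hmox1, Anxa1 and Anxa2 lower) were each lost without at least 2 of the libraries left out in turn, and 1 to 5 members rose and 1 to 4 fell under those fits. Prdx5, a peroxiredoxin, rose 1.94-fold, 1 of 3 risers among 25 antioxidant genes with Sod2 and Fth1, which were both lost without diabetic Esm-1 replicate 2 or 3; without replicate 1 there were 5 risers. Nr1d1, a repressor of the circadian clock, fell 1.90-fold, and of 18 tested clock genes Clock was the other faller, lost without diabetic Esm-1 replicate 2 or 3 or non-diabetic saline replicate 2 or 3. Mrc1, the mannose receptor of macrophages and of some endothelia, was the 1 faller among 3 tested myeloid genes (57.9 ± 8.05 to 25.7 ± 5.83 normalized counts, mean and SD, n = 3).

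Markers of further cell types gave few tests. Of 12 tested genes of parietal epithelium and keratins, which line Bowman's capsule, 4 rose and 1 fell. Ncam1, an adhesion molecule, had 26.6, 55.3 and 27.4 normalized counts in non-diabetic saline and 13.02, 7.63 and 14.4 in diabetic Esm-1 (2.88-fold lower), while Aldh1a2, a retinoic acid synthesis enzyme that passed the filter only through diabetic Esm-1, was among the risers. The risers of this list numbered 2 without diabetic Esm-1 replicate 3 and 1 without non-diabetic saline replicate 2. Apob, the structural protein of lipoproteins and the 1 tested hepatocyte gene, had 25.4, 19.04 and 14.96 normalized counts against 97.0, 60.1 and 83.8 (3.92-fold higher). Slc4a1, an anion exchanger of red cells and of the collecting duct, was the 1 tested erythroid gene and rose 1.97-fold, a call lost without diabetic Esm-1 replicate 3. Of 2 tested cell cycle genes Ccnd1, which encodes cyclin D1, rose 1.45-fold, a call lost without diabetic Esm-1 replicate 2 or 3 or non-diabetic saline replicate 2 or 3, and the replication factor gene Pcna had a log2 difference of -0.04. No lymphocyte gene passed the filter on low values.

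Outside the lists and the interferon genes above, the largest rises among genes that averaged 50 or more where they were higher were in Slc16a7, a monocarboxylate transporter (4.72-fold), Kng2, a kininogen (4.58-fold), Abca13 (4.56-fold), Pgam2 (4.32-fold), Tmem52b (4.15-fold), Pigr, the transporter of polymeric immunoglobulins (4.10-fold), Myh14 (3.65-fold) and Ly6a (3.35-fold). Without non-diabetic saline replicate 2, which was also the library lowest in distal tubule markers, the log2 difference was 1.37 for Kng2 in place of 2.20, 1.40 for Abca13 in place of 2.19, 1.51 for Pgam2 in place of 2.11 and 1.45 for Tmem52b in place of 2.05. The largest falls were in Wipf3, a regulator of actin assembly (3.40-fold), the kinase gene Pak1 (3.33-fold), the cytochrome P450 gene Cyp2d22 (3.14-fold), Atp8b2 (3.12-fold), Adcy1, an adenylyl cyclase (3.11-fold), the adhesion gene Ceacam1 (3.10-fold), Mtss1, which couples membrane to actin (3.09-fold), Srgap1, a regulator of small GTPases (3.04-fold), Rab3b (3.02-fold), Ahdc1 (2.97-fold), Arl4d (2.90-fold) and Gas7 (2.85-fold). Srgap1 had a mean of 294.8 normalized counts in non-diabetic saline, 150.9 in diabetic saline and 96.8 in diabetic Esm-1.

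**Figure D5:**
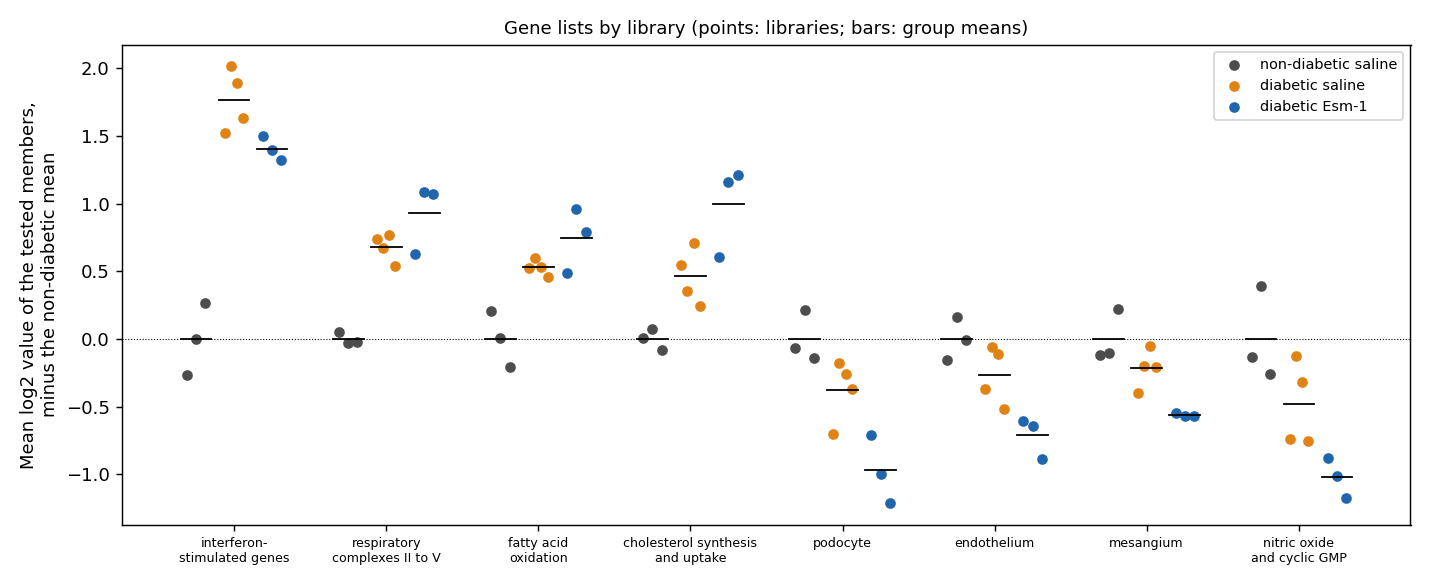
Mean log2 value of the tested members of 8 gene lists in each of the 10 libraries, minus the mean of the non-diabetic libraries (vertical axis); points are libraries and bars group means. Interferon-stimulated genes lie 1.41 above the non-diabetic mean in diabetic Esm-1, and podocyte genes 0.97 below it.

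The direct comparison of the diabetic groups asked whether these genes differed with the plasmid. No gene passed limma at an adjusted p under 0.05 among the 7632 (smallest adjusted p = 0.14), and edgeR called none (314 higher and 555 lower at an unadjusted p under 0.05); DESeq2 called 37 lower and 1 higher in diabetic Esm-1. At an unadjusted p under 0.05, limma had 562 genes lower (7.36%) and 293 higher (3.84%). By list, those lower at this unadjusted level were 25 of 33 podocyte, 14 of 26 endothelial, 10 of 20 mesangial and 16 of 54 interferon-stimulated genes, while 8 of 40 genes of complexes II to V, 9 of 24 proximal tubule and 4 of 12 cholesterol genes were higher. Of the 37 genes lower by DESeq2, 8 were podocyte and 5 endothelial markers, among them Nphs1 (log2 -0.77), Podxl, a podocyte surface sialoprotein (log2 -0.77), and Eng, an endothelial TGF-beta co-receptor (log2 -0.79). With diabetic saline replicate 1 left out, limma called 25 genes lower and 3 higher, and 8 lower with diabetic Esm-1 replicate 1 left out.

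Set side by side, the mean of Rsad2 was 78.9 normalized counts in non-diabetic saline, 807.6 in diabetic saline and 584.5 in diabetic Esm-1 (diabetic Esm-1 against diabetic saline log2 -0.44, SE 0.18, limma adjusted p = 0.36). Ackr2 had 29.6, 31.5, 15.5 and 23.01 normalized counts in the diabetic saline libraries, between the ranges of the other groups (log2 -1.47, SE 0.34, limma adjusted p = 0.14). Each diabetic Esm-1 library was below each diabetic saline library for Ackr2, with 13.2 and 15.5 normalized counts as the nearest values. The share of all tested genes that separate so between the diabetic groups was not counted. Col4a1 had 747.9, 802.4, 777.8 and 727.6 normalized counts in diabetic saline, inside the non-diabetic range and above every diabetic Esm-1 library (log2 -0.56, SE 0.12, limma adjusted p = 0.14). C3 stood likewise near the non-diabetic mean of 31.0 in diabetic saline (35.9) and higher in diabetic Esm-1 (71.6; log2 0.96, SE 0.26, limma adjusted p = 0.165). By contrast, Ltbp4 had means of 83.6, 35.9 and 36.5 normalized counts and Cyp2d22 of 72.7, 22.2 and 24.4 in non-diabetic saline, diabetic saline and diabetic Esm-1, with log2 differences between the diabetic groups of 0.08 (SE 0.24) and 0.03 (SE 0.27). A missed threshold does not show that the diabetic groups were alike for these genes. Among the lists, the median log2 difference from non-diabetic saline for interferon-stimulated genes was 1.61 in diabetic saline and 1.23 in diabetic Esm-1. In the same order it was 0.72 and 0.91 for complex I, and 0.66 and 0.92 for complexes II to V. Distal convoluted tubule and collecting duct genes had 0.55 and 0.80, podocyte genes -0.28 and -1.05, and endothelial genes -0.32 and -0.74. The comparisons of each diabetic group with non-diabetic saline share the control libraries and are not independent.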

How the data were processed

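RNA-seq libraries of mouse glomeruli were grouped by their titles. Per the submitters' processing notes, the tools were Trimmomatic 0.36 (a trimmer), STAR 2.5.3a (an aligner), DESeq2 1.28.1 and R 4.0.2, on build mm9; how reads were counted, and whether by strand, is not given in the sources used here, so reads of overlapping antisense genes cannot be told apart. The deposited signal values are the authors' normalized counts. All 129340 values were whole reads within a tolerance of 0.001 after division by the value of 1 read in that library. Genes at 10 or more in at least 3 of the 6 libraries were tested (7632, leaving 5302 untested). A single fit by limma 3.58.1 in R 4.3.3 to log2 of the value plus 1 held all 10 libraries and 3 groups, with an intensity trend, so that diabetic saline shared in the estimate of the spread. Tests were two-sided with Benjamini-Hochberg adjusted p under 0.05, and the fit was tested on simulated reads. Single values used exact permutation (scipy 1.17.1); intervals are 95% exact conditional Poisson and cover counting error only. Count tests on the recovered reads used edgeR 4.0.16 (genes changed, diabetic Esm-1 against non-diabetic saline: 629 higher and 656 lower) and DESeq2 1.42.0 (480 and 581).

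The 36 gene lists and the genes compared were chosen with earlier results of these data known. Named genes were, outside the lists, the 12 largest rises and falls among genes called with and without each library, not overlapping and averaging 50 or more where higher, and, in each list, up to 4 such genes with a mean of at least 20. Where a list had none, up to 2 genes averaging 50 or more were named, and Esm1, Ackr2 and Cxcl11 were always named. Members of short counts and further podocyte and promoter genes were chosen after seeing their values. Among the row names, 19 have the form of dates and were not named, and results of some list members are not reported here. Numbers of replicates follow the order of the records.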

Additional observations from a re-analysis of the deposited data

Results flagged for a closer look

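In the group of 4 diabetic saline libraries, 3 named genes had 1 library far from the other libraries of the group, by Dixon's ratio of the gap to the range; chance alone would do so in about 1 of 20 groups, and the group was examined for every named gene. Ifi27l2a was lowest at 19.2 normalized counts in replicate 1, Ndufb6 highest at 58.4 and Adcy1 highest at 110.1. These libraries entered the comparison with non-diabetic saline only through the shared estimate of the spread.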

How the results depend on the processing

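The numbers of genes that rose (576) and fell (673) against non-diabetic saline stayed within 1.5 times under a pseudocount of 5, no filter, a filter on the mean, a common total without the 3 most abundant genes, edgeR, DESeq2, no intensity trend, a fit of the 2 compared groups, a term for title numbers under 100 and leaving out the 2 libraries with such numbers. Leaving out each library in turn gave 276 to 619 genes higher and 350 to 731 lower. Against diabetic saline no gene was called in the fit with all libraries; DESeq2 called 1 higher and 37 lower, and leaving out each library gave 0 to 3 higher and 0 to 25 lower. The cause was not tested. No paired analysis was possible because the titles carry no numbers shared between groups. Without the intensity trend, fewer list members were called: 4 in place of 8 in antigen presentation, 6 in place of 10 in the citric acid cycle, 2 in place of 5 in glycolysis and in thick ascending limb, 9 in place of 15 in distal tubule, 1 in place of 7 in matrix, 3 in place of 5 in Notch, 7 in place of 12 actin fallers, 6 in place of 11 immediate-early fallers, 1 in place of 4 in each direction in injury, 1 in place of 3 in antioxidants and 1 in each direction in proteoglycans. Of the named genes, Spp1 was not called by DESeq2 (adjusted p = 0.0522) or without the intensity trend (0.0564), nor was Col4a1 without that trend (adjusted p = 0.0726). Ccnd1 was not called without that trend (limma adjusted p = 0.075). The same held for Ccnd1 without the 2 libraries with title numbers under 100 (limma adjusted p = 0.0738). Pcna, a replication factor that was not called (log2 -0.04), changed sign without diabetic Esm-1 replicate 1 or 2 or non-diabetic saline replicate 1 or 2, and ranged from -0.20 to 0.048 when each library was left out. Rn45s took most reads, which limits depth for genes near 10 normalized counts.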
